A study of Mus musculus with 9 samples.

Results

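Ribosome footprints on 10 interferon-induced antiviral effector genes were examined in striatal cells that model Huntington disease. The genes were Ifit1, Ifit2 and Ifit3, Ifitm1, Ifitm2 and Ifitm3, Mx1 and Mx2, and Rsad2 with Cmpk2. They were taken by symbol from a table of 36410 rows, and all 10 had a row. In ribosome profiling, nuclease digests all mRNA that is not covered by a ribosome, and the protected pieces, or footprints, are sequenced and counted per gene. No matched mRNA values were used, so a higher count can stand for more mRNA or for more ribosomes on each mRNA, and these cannot be told apart here.

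The libraries came from 3 immortalized lines of mouse striatal cells, each labelled as strain C57/BL6. The control line, STHdhQ7/Q7, has 7 glutamines encoded in both alleles of Htt, the huntingtin gene. The line called HD-het, STHdhQ7/Q111, has an expanded knock-in allele of 111 glutamines beside an allele of 7, and the HD-homo line, STHdhQ111/Q111, is homozygous for the expanded allele. All lines alike were given cycloheximide, which arrests elongating ribosomes, for 10 min before harvest, and the labels name no treatment with interferon or virus. Each genotype was represented by 1 line, so genotype and line cannot be told apart, and each line had 3 libraries from separate rounds of culture.

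Library totals ran from 22504543 to 41888701 counts, and 3 counts equalled from 0.0714 to 0.142 CPM, the unit used below, which divides counts by TMM-scaled totals and multiplies by 1e+06. Among 9 markers of striatal neurons, the dopamine receptor genes Drd1 and Drd2 had a mean of 0 CPM in every line, Ppp1r1b (DARPP-32) ran from 6.42 to 16.1, 3.30 to 6.38 and 4.06 to 15.6 CPM in the order control, HD-het, HD-homo, Penk averaged 1.42, 0.824 and 2.92 CPM, and the other markers were under 1 CPM. In the same order, the precursor markers Vim and Cdk1 averaged 9228, 8275 and 6197 CPM and 847, 457 and 914 CPM. The other precursor markers were lowest in HD-homo cells, the line where most members were highest: Nes averaged 400, 1086 and 7.01 CPM, Sox2 51.1, 33.9 and 2.26 CPM and Pax6 17.3, 24.8 and 0.0759 CPM. Of 10 microglia and macrophage markers, Cx3cr1 and Tyrobp were at 0 in every line, and the summed level ran from 6.96 to 9.58 CPM in control, 22.7 to 35.6 in HD-het and 7.19 to 8.65 in HD-homo libraries. Nearly all of it was Tmem119 (means of 5.43, 21.2 and 4.39 CPM in the same order) and Cd68 (2.38, 5.19 and 2.47 CPM). Csf1r was highest in HD-homo cells (0.339, 0.380 and 1.06 CPM), and the other markers of this list were under 1 CPM in every line. The 4 fibroblast markers were all above 1 CPM in each line and summed to between 2333 and 4254 CPM in control, 15103 and 18384 in HD-het and 5178 and 6522 in HD-homo libraries. Most of this sum was Col1a1, and within it Col1a2 and Pdgfra were highest in HD-homo cells, with means of 24.0, 88.9 and 1027 CPM and of 3.81, 6.85 and 155 CPM over the lines in that order, while Pdgfrb was highest in HD-het cells (45.9, 354 and 56.3 CPM). Whether such differences between the lines have a part in the results was not tested. Footprints on Htt itself averaged 28.7 ± 1.07 CPM in control libraries and fell to 20.3 ± 0.818 in those of HD-het and 6.62 ± 0.971 in those of HD-homo (SD, n = 3 each).

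Type I interferon binds a receptor of the subunits IFNAR1 and IFNAR2, which sets off the assembly of a transcription factor complex that holds IRF9 and binds interferon-stimulated response elements near the start of its target genes. IFIT proteins bind viral RNA that lacks the cap methylation of host mRNA and hinder its translation, and IFITM proteins sit in cell and endosomal membranes and block the fusion of enveloped viruses. MX proteins are dynamin-like GTPases that form rings around viral nucleoprotein complexes. Viperin, the product of Rsad2, converts CTP into a chain-terminating nucleotide, and Cmpk2, a kinase of the mitochondrial nucleotide supply, is encoded beside it.

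The members lay in 4 clusters of the GRCm38.p6 assembly. Ifit2, Ifit3 and Ifit1 occupied 99460 bases of chromosome 19 (chr19:34550550-34650009). Ifitm2, Ifitm1 and Ifitm3 occupied 55908 bases of chromosome 7 (chr7:140954837-141010744). Rsad2 and Cmpk2 lay head to head within 37095 bases of chromosome 12 (chr12:26442743-26479837), and Mx1 and Mx2 within 113867 bases of chromosome 16 (chr16:97447035-97560901). RefSeq annotates Mx1 and Mx2 of this assembly, which is of the C57BL/6J strain, as transcribed pseudogenes with no coding sequence. The other members are annotated as protein coding.

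The promoters are shown because the members are textbook targets of the same complex. The motif searched was GAAANNGAAA on both strands (TTTCNNTTTC where it lies on the other strand), which is the core of an interferon-stimulated response element, in RefSeq windows from 250 bases before to 50 after each annotated start. A window was found for 8 members, all but Mx1 and Mx2, and 5 of the 8 held a match: Ifit1, Ifit3, Ifitm2, Ifitm3 and Rsad2. Of all 27018 genes with a window, 3.99% held the motif. At least 2 matches in a window were seen in Ifit1, Ifit3 and Ifitm3, which is 3 of 8 members, beside 0.266% of all genes. Ifit2, Ifitm1 and Cmpk2 had no match in their windows. The stretches that hold the matches, each printed 5′ to 3′ on the strand of its gene with the matches in capitals, are as follows.
Ifit1 (chr19:34640765-34640833, + strand): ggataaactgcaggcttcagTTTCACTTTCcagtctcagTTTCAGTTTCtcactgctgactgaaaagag
Ifit3 (chr19:34583353-34583436, + strand): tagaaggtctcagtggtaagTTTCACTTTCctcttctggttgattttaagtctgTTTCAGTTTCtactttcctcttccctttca
Rsad2 (chr12:26456543-26456592, - strand): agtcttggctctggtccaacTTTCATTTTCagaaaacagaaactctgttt
Ifitm2 (chr7:140955978-140956027, - strand): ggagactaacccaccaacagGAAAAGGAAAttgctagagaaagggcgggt
Ifitm3 (chr7:141010716-141010742, - strand): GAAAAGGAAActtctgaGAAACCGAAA

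The stretch of 69 bases shown for Ifit1 lies in the windows of both Ifit1 and Ifit1bl2, a relative that is annotated on the opposite strand, so the matches of both windows are the same bases. The 84 bases of Ifit3 also had 0 differing bases from those of its relative Ifit3b. In Ifitm3 both matches lay just after the annotated start. A match is a description of the letters and does not show that a factor binds there.

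Levels of the members spanned a wide range within each line. Summed over all 10, they came to between 217 and 239.8 CPM in control, 127 and 146 in HD-het and 409 and 616 in HD-homo libraries. The groups did not overlap in this sum. The 3 IFITM genes made up most of it, from 83.9% to 91.9% of the sum in every library, and Ifitm3 alone made up between 41.3% and 43.8% in control, 30.4% and 36.0% in HD-het and 55.2% and 67.1% in HD-homo libraries.

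Per kilobase of coding sequence, which allows genes to be compared, Ifitm3 and Ifitm2 led in control cells at 236 ± 16.3 and 224 ± 8.79 CPM per kb (SD, n = 3), and their ranges overlapped. Ifitm1 followed at 42.6 ± 2.79, Ifit2 at 14.4 ± 1.83, Ifit3 at 0.241 ± 0.0467 and Ifit1 at 0.0295 ± 0.00402 CPM per kb, while Rsad2 and Cmpk2 had no count. In HD-het cells Ifitm2 stood first, at a mean of 147 CPM per kb (136 in the lowest library) against 107 ± 10.7 for Ifitm3, and the ranges of these did not overlap. In HD-homo cells Ifitm3 reached 786 ± 228 CPM per kb, above Ifitm2 at 271 ± 49.2 and Ifitm1 at 75.3 ± 15.4. Ifit1 came next there, at 19.6 ± 4.48 CPM per kb, with a range that overlapped that of Ifit2 at 11.4 ± 4.22. Ifit3 at 6.52 ± 0.436, Rsad2 at 2.02 ± 0.685 and Cmpk2 at 0.667 ± 0.320 CPM per kb came below, with ranges that did not overlap.

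**Figure D1:**
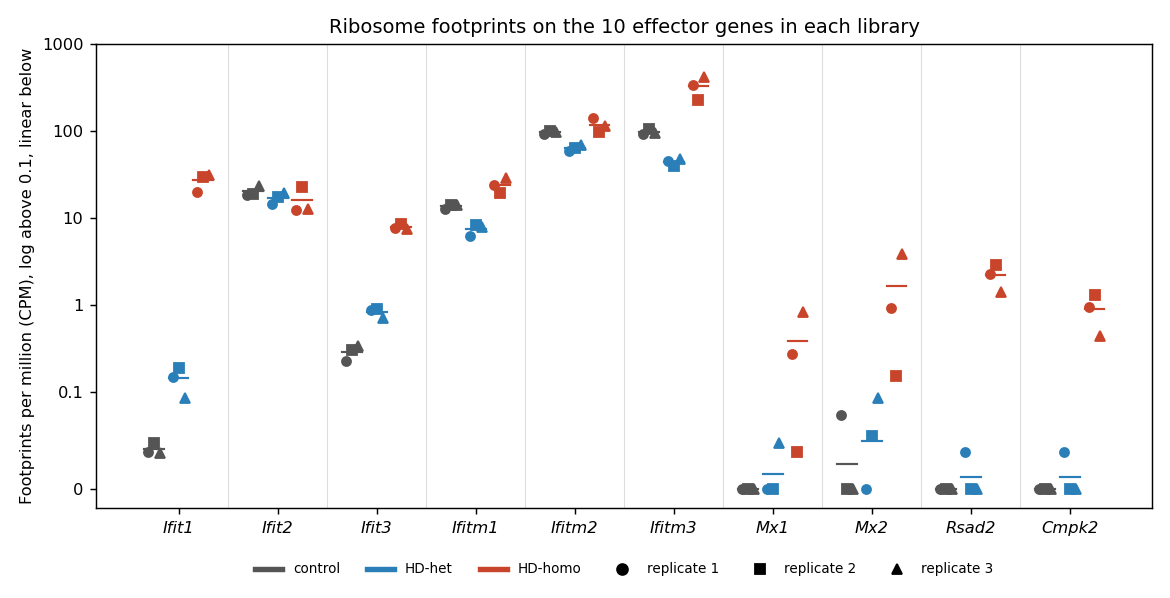
Footprints on the 10 members in each of the 9 libraries, in CPM on an axis that is logarithmic above 0.1 and linear below. Points are libraries, with their shape giving the replicate, and short lines are means of a line. The HD-homo libraries lie above all others for Ifit1, Ifit3, Ifitm1, Ifitm3, Mx2, Rsad2 and Cmpk2, whereas the 3 lines overlap for Ifit2. For Mx2 the lowest HD-homo library had 4 counts.

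Of the 10 members, 8 passed the filter on low counts, and Mx1 and Mx2 did not. In HD-het against control cells, 1 of the 8 was higher (Ifit3) and 3 were lower (Ifitm1, Ifitm2 and Ifitm3) at an adjusted p under 0.05 by edgeR's quasi-likelihood test, where 31.0% of the 12678 genes tested were higher and 29.1% lower. In HD-homo against control cells, 6 were higher and 0 lower, beside 23.3% and 22.3% of the genes tested. In HD-homo against HD-het cells, 7 were higher and 0 lower, beside 34.6% and 32.8%. Of the 8, Ifit1, Rsad2 and Cmpk2 passed the filter only through the HD-homo libraries, the group where they are high, which favours a higher call there. Of all 345 genes that entered in this way, 283 were higher than in control and 280 higher than in HD-het cells. Among the other 5 members, 3 were higher than in control cells (Ifit3, Ifitm1 and Ifitm3) and 4 higher than in HD-het cells (Ifitm2 as well). With at least 10 counts required in every library, the members that passed and were higher in HD-homo cells numbered 2 against control and 3 against HD-het. These comparisons share their libraries pairwise. The median fitted log2 difference of the 8 was 0.63, 3.23 and 3.05 in that order, beside 0.02 for all genes tested in each comparison. With genes near the floor set at their bound or count ratio, and those at or under the floor in both lines left out, the medians were -0.42, 2.45 and 3.05, so the sign of the first rests on genes with hardly any counts. The HD-homo medians of both kinds include Ifit1, Rsad2 and Cmpk2, whose entry favours high values there. The other 5 ran from -0.34 (Ifit2) to 4.73 (Ifit3) against control and from -0.10 (Ifit2) to 3.23 (Ifit3) against HD-het cells.

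Among the IFIT genes, the RNA-binding Ifit1 had 1, 2 and 1 counts in the control libraries, 4, 7 and 2 in HD-het and 724, 785 and 714 in HD-homo. The HD-homo libraries stood far above the rest. Control and HD-het libraries did not overlap in CPM, but control replicate 2 and HD-het replicate 3 had 2 counts each. All control counts were under the floor of 3, so the order of these lines cannot be told. The ratio of pooled counts, HD-homo over control, was 622, with a 95% exact binomial interval from 243 to 2286 that covers counting error alone. Against HD-het cells the fitted log2 fold change was 7.42 ± 0.27 (SE), and in the table without a filter the adjusted p was 4.76e-12 by edgeR. In HD-het against control cells the ratio of pooled counts was 3.67, with an interval from 1.14 to 15.5, and the adjusted p by edgeR was 0.0513.

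Ifit3, known as an adaptor in antiviral signalling, had 6, 13 and 9 counts in control, 23, 33 and 15 in HD-het and 280, 222 and 168 in HD-homo libraries. As for Ifit1, the HD-homo libraries were the highest, but control cells had a measurable level of Ifit3. The 3 lines did not overlap, and the HD-het libraries lay between the others. In CPM these were 0.292 ± 0.0566, 0.830 ± 0.106 and 7.91 ± 0.529 (SD, n = 3). The log2 fold change was 1.50 ± 0.24 for HD-het and 4.73 ± 0.19 for HD-homo against control (SE, adjusted p by edgeR of 0.000269 and 7.84e-09).

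Ifit3b, a near copy of Ifit3, carried almost the same counts: 5, 11 and 7 in control, 23, 32 and 13 in HD-het and 275, 220 and 162 in HD-homo libraries, which is between 77.8% and 100% of the count of Ifit3 in the same library. Of all 28-base words in the coding sequence of Ifit3, 79.9% also occur in Ifit3b. The authors' treatment of fragments that fit several genes is not given in the sources used here, so the counts of Ifit3 and Ifit3b cannot be taken as separate measurements. Ifit1 shared 19.3% of its words with other transcripts, 18.5% with Ifit1bl2 and 11.6% with Ifit1bl1.

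Ifit2, known to protect the mouse brain from neurotropic viruses, did not follow the other IFIT members, and it shared no 28-base word with another gene. Its counts were 487, 805 and 620 in control, 386, 632 and 415 in HD-het and 446, 600 and 289 in HD-homo libraries, or 20.4 ± 2.58, 17.2 ± 2.49 and 16.1 ± 5.97 CPM. The 3 lines overlapped. The log2 fold change was -0.24 ± 0.21 for HD-het and -0.34 ± 0.22 for HD-homo against control, with adjusted p of 0.348 and 0.218 by edgeR, and -0.10 ± 0.22 for HD-homo against HD-het with 0.696. The HD-homo value rested on replicate 2, at 22.9 CPM beside 12.4 and 12.8. Without that library Ifit2 was lower in HD-homo than in control cells (log2 fold change -0.69, adjusted p 0.0029) and than in HD-het cells (-0.44, adjusted p 0.0192), both by edgeR.

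The relatives beside Ifit1 were highest in HD-homo cells and at or under the floor in the other lines, whose order cannot be told. Ifit1bl1 had 0 counts in each control library, 0, 2 and 1 in HD-het and 46, 37 and 35 in HD-homo, and Ifit1bl2 had 0 in each control library, 0, 1 and 0 in HD-het and 41, 37 and 38 in HD-homo. Against the floor of 3 counts per library, HD-homo cells had at least 14.2-fold more of both than control cells, and both passed the filter only through the HD-homo libraries. The annotated span of Ifit1bl1 covers Ifit1, Ifit1bl2 and Ifit3b, so its reads may overlap theirs.

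The 3 IFITM genes were lower in HD-het than in control cells, whereas of the IFIT genes Ifit3 was higher and Ifit1 and Ifit2 did not pass. The difference between the families was not tested. Ifitm3, the member of the family known to restrict influenza virus in endosomes, had 2408, 4417 and 2543 counts in control, 1204, 1434 and 1015 in HD-het and 12098, 5908 and 9331 in HD-homo libraries. The HD-het libraries were the lowest and the HD-homo libraries the highest, at 97.5 ± 6.76, 44.4 ± 4.43 and 325 ± 94.4 CPM (SD, n = 3). Relative to control, the log2 fold change of the HD-het line was -1.14 ± 0.18 and that of the HD-homo line 1.74 ± 0.18 (SE), at adjusted p by edgeR of 0.000243 and 1.35e-05. Between the mutant lines it was 2.88 ± 0.19, with an adjusted p of 2.14e-07.

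Ifitm1, which acts mostly at the cell surface, had 331, 597 and 377 counts in control, 166, 306 and 166 in HD-het and 860, 506 and 659 in HD-homo libraries. The order of the lines was that of Ifitm3, again with no overlap, at 13.7 ± 0.895, 7.52 ± 1.09 and 24.2 ± 4.94 CPM. The log2 fold change was -0.86 ± 0.16 for HD-het and 0.82 ± 0.15 for HD-homo against control (adjusted p by edgeR of 0.000745 and 0.00114), and 1.68 ± 0.16 for HD-homo against HD-het (3.61e-06).

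Ifitm2 had 2448, 4248 and 2612 counts in control, 1561, 2308 and 1472 in HD-het and 5057, 2568 and 2590 in HD-homo libraries. It was lower in HD-het than in control cells, with a log2 fold change of -0.61 ± 0.12 (adjusted p 0.00118 by edgeR), and exceeded the HD-het level in HD-homo cells by 0.88 ± 0.12 (6.18e-05). Against control, the HD-homo libraries overlapped, at 118 ± 21.4 beside 97.6 ± 3.82 CPM, and the log2 fold change of 0.27 ± 0.12 had an adjusted p of 0.0839. Without HD-homo replicate 2 it was 0.39, with an adjusted p of 0.0110.

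Coding sequences of the IFITM genes are short, from 321 bases in Ifitm1 to 435 in Ifitm2, and resemble each other. Words of 28 bases found in another transcript made up 48.0% of Ifitm1, 83.1% of Ifitm2 and 38.5% of Ifitm3, among them predicted genes and a predicted transcript, Gm45717, that shares words with Ifitm1, Ifitm2, Ifitm3 and Ifitm5. Gm7676 held 39.5% of the words of Ifitm1 and 13.2% of those of Ifitm3. Between Ifitm3 and Ifitm2 the share was 10.9% of Ifitm3. The levels of the 3 genes are therefore open to reads placed on a copy.

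Relatives of the family moved apart. Ifitm7, on chromosome 16, had the pattern of Ifitm3: means of 6.01 ± 1.30, 2.82 ± 0.238 and 18.7 ± 6.22 CPM in control, HD-het and HD-homo libraries, and its log2 fold change against control was -1.09 ± 0.26 and 1.63 ± 0.23 in turn (adjusted p by edgeR of 0.00365 and 0.000172), and 10.5% of its words occur elsewhere. Ifitm10 ran the other way, at 5.40 ± 0.793, 8.05 ± 0.990 and 1.32 ± 0.741 CPM, with log2 fold changes of 0.58 ± 0.24 (adjusted p 0.0546) and -2.08 ± 0.28 (adjusted p 0.000117). Of the words of Ifitm10, 32.6% occur elsewhere, in the transcript Gm49369. The annotated span of Ifitm7 overlaps that of Bmerb1, so its reads may overlap those of Bmerb1. Ifitm5, known from bone, and Ifitm6 had at most 2 counts in any library. Of the 7 relatives, 5 were tested, of which 1 was higher and 1 lower in HD-het cells and 4 were higher and 1 lower in HD-homo cells, each against control. The 4 include Ifit1bl1 and Ifit1bl2. Shares over all genes tested were 31.0% higher and 29.1% lower in HD-het cells, and 23.3% and 22.3% in HD-homo cells.

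**Figure D2:**
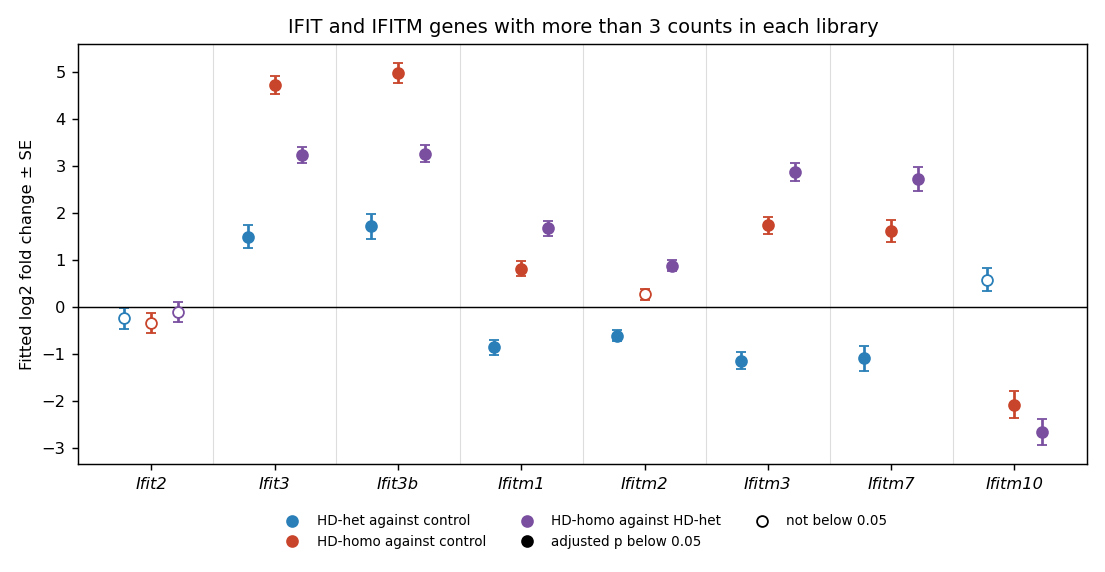
Fitted log2 fold changes with their standard errors for the IFIT and IFITM genes with more than 3 counts in each library, in 3 comparisons of 3 libraries against 3. Filled points have an adjusted p under 0.05 by edgeR. Ifitm1, Ifitm3 and Ifitm7 lie below 0 in HD-het and above 0 in HD-homo cells, Ifit3 and Ifit3b lie above 0 in both, and Ifit2 has no filled point.

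Rsad2 had 0 counts in each control library, 1, 0 and 0 in HD-het and 82, 76 and 32 in HD-homo. Its neighbour Cmpk2 had 0 counts in each control library, 1, 0 and 0 in HD-het and 34, 34 and 10 in HD-homo. Both were thus read in HD-homo cells and at or under the floor in the other lines. Against that floor, HD-homo cells had at least 22.1-fold more footprints on Rsad2 and at least 9.00-fold more on Cmpk2 than control cells. Both entered the filtered table only through the HD-homo libraries, so the p-values given are those of the table without a filter, 5.25e-07 for Rsad2 and 2.92e-05 for Cmpk2 against control (adjusted, by edgeR). Against the 1 count of the HD-het line, the ratio of pooled counts was 188 for Rsad2 (exact interval from 33.4 to 7472) and 77.3 for Cmpk2 (13.5 to 3090). Neither gene shared a 28-base word with another transcript. The 0 counts in control cells allow up to 3 counts in a library and do not show that the mRNA is absent.

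The MX genes were close to the floor outside HD-homo cells and uneven within them. Mx1 had 0 counts in each control library, 0, 0 and 1 in HD-het and 10, 1 and 19 in HD-homo. Mx2 had 2, 0 and 0 counts in control, 0, 2 and 2 in HD-het and 33, 4 and 88 in HD-homo. The HD-homo libraries overlapped those of HD-het for Mx1, since replicate 2 had a single count, and did not overlap for Mx2. Pooled over libraries, Mx2 was 70.0 times as frequent in HD-homo as in control cells, with an exact interval from 19.0 to 584, and Mx1 was at least 3.88-fold higher against the floor. Both values were smaller without HD-homo replicate 3: Mx2 was then 28.2 times as frequent (exact interval from 7.28 to 242) and the bound for Mx1 was 1.59-fold.

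Neither MX gene passed the filter. Fitted without a filter, over 16813 genes, both had more footprints in HD-homo than in control libraries, with adjusted p by edgeR of 0.0055 for Mx1 and 0.00111 for Mx2, and more than in HD-het libraries (0.00809 and 0.00117). Without HD-homo replicate 3 the adjusted p were 0.0195 and 0.00275 against control and 0.0389 and 0.00438 against HD-het libraries. Mx1 shared 9.96% of its exonic words with other transcripts and Mx2 13.3%, mostly with each other. Because RefSeq gives no coding sequence for either, no level per coding length was formed.

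The other dynamin-family GTPases, which act in membrane fission and fusion, were called at numbers near the shares of all genes tested. Of 10 tested, 2 were higher (Dnm1 and Dnm3) and 3 lower (Opa1, Atl1 and Atl2) in HD-homo against control cells, beside 23.3% and 22.3% of all genes. The median log2 difference was -0.03. For HD-het against control, 4 rose and 2 fell, beside 31.0% and 29.1% of all genes, and the median was 0.06.

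The members differed in which HD-homo library was the highest or the lowest. Replicate 3 was the highest for Mx1, Mx2, Ifitm1, Ifitm3 and Ifit1, at 218% and 235% of the line's mean for Mx1 and Mx2 and 127% for Ifitm3. For Rsad2 and Cmpk2 it was the lowest, at 64.5% and 49.5%. Replicate 2 was the highest for Rsad2, Cmpk2, Ifit2 and Ifit3, at 132%, 145%, 143% and 107%, and the lowest for both MX genes, at 9.90% and 9.22%, and for all 3 IFITM genes. Over all 12678 genes tested, replicate 3 was the highest for 29.7% and the lowest for 29.7%. Replicate 2 was the highest for 34.5% of them and the lowest for 37.3%, so a split over the libraries is not particular to the members.

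The coefficient of variation among these 3 libraries was 107% for Mx1, 120% for Mx2, 48.0% for Cmpk2, 37.2% for Ifit2 and 33.9% for Rsad2. These exceed the values of 98.7%, 98.8%, 94.1%, 90.6% and 88.7% of the 12678 genes tested. Mx1 and Mx2 had not passed the filter that those genes passed. Counts were few for Mx1 (10, 1 and 19) and Cmpk2 (34, 34 and 10), and the part of counting error in their spread was not tested. At the other end, Ifit3 varied by 6.69%, above 20.7% of genes. The median over all genes tested was 13.0%. Totals of the 3 libraries were 35230924, 24853032 and 22504543 counts, and their part in the spread was not tested.

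**Figure D3:**
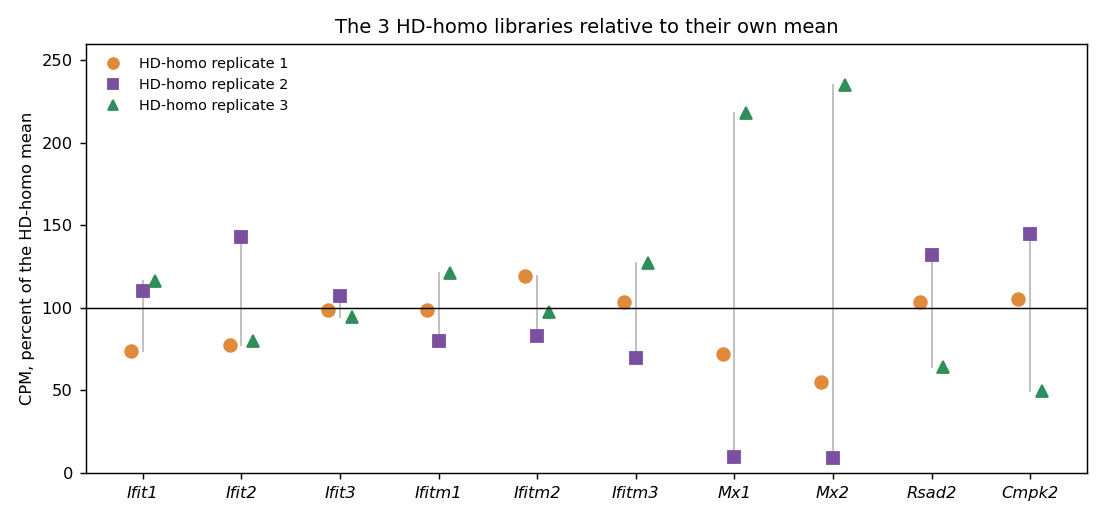
Level of each member in the 3 HD-homo libraries, as a percentage of their mean CPM. The black line marks the mean and gray lines join the lowest and highest library. Replicate 3 is at 218% and 235% for Mx1 and Mx2 and at 64.5% and 49.5% for Rsad2 and Cmpk2.

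Genes of the interferon pathway were listed for comparison. Of 17 ligand, receptor and signalling genes, 13 were tested. Against control, 5 rose and 3 fell in HD-het cells, while 7 rose and 2 fell in HD-homo cells, with median log2 differences of 0.40 and 0.41. Over all genes tested, 31.0% rose and 29.1% fell in HD-het cells, near the counts of this list, and 23.3% and 22.3% did in HD-homo cells. Ifnb1, the first interferon made by most infected cells, had at most 1 count in any library, and Ifna1, Ifna2 and Ifna4 had none.

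The receptor genes were highest in HD-het cells. Ifnar1 averaged 46.1 ± 2.56 CPM there, beside 22.9 ± 3.16 in control and 26.7 ± 2.55 in HD-homo libraries, and the log2 fold change was 1.01 ± 0.12 for HD-het (adjusted p 2.49e-05) and 0.22 ± 0.12 for HD-homo (0.143) against control by edgeR. Ifnar2 was likewise higher in HD-het cells, by 0.87 ± 0.16 (adjusted p 0.000621), and had 0.41 ± 0.16 in HD-homo cells (0.0506).

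The factors downstream did not share a pattern. From control over HD-het to HD-homo libraries, Irf9 rose from 1.76 ± 0.143 to 5.97 ± 0.952 and 19.6 ± 4.11 CPM, and Irf7, an amplifier of interferon production, from 0.154 ± 0.0654 to 0.837 ± 0.310 and 4.99 ± 1.50. Each of these steps passed the test. Irf1 was lower in HD-het cells (-0.62 ± 0.16, adjusted p 0.00673) and higher in HD-homo cells (0.58 ± 0.16, adjusted p 0.0114) than in control by edgeR. Irf3, which switches on interferon genes after viral sensing, was lower in HD-homo cells, by -0.58 ± 0.11 (adjusted p 0.00124), with 0.19 ± 0.11 in HD-het cells (adjusted p 0.146). Stat2 was higher in HD-homo cells, by 1.37 ± 0.13 (adjusted p 6.00e-06 by edgeR), and not detectably so in HD-het cells (0.11 ± 0.14, adjusted p 0.507). Usp18, which dampens signalling at the receptor, had 0.153, 0 and 0 CPM in the control, 0.266, 0.110 and 0.473 in the HD-het and 11.9, 7.72 and 27.1 in the HD-homo libraries, and it passed the filter only through the HD-homo libraries.

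Of 38 other interferon-induced antiviral genes, 34 were tested. In HD-het against control cells 21 were higher and 3 lower, beside 31.0% and 29.1% of all genes tested. In HD-homo against control 31 were higher and 1 lower, beside 23.3% and 22.3%. The median fitted log2 differences were 1.42 and 2.95. Treated near the floor as for the members, they were 1.18 and 2.95. Of the 34, 7 passed the filter only through the HD-homo libraries, among them Oas1a and Oasl2, and the medians for HD-homo cells include these 7. Of the other 27, 24 were higher and 1 lower in HD-homo than in control cells. Of all 12333 genes tested that did not enter in this way, 2674 were higher and 2833 lower. Isg15, a ubiquitin-like modifier, went from 0.473 ± 0.0839 CPM in control to 1.94 ± 0.104 and 34.9 ± 10.4. Zc3hav1, which binds CpG-rich viral RNA, was at 52.6 ± 0.707, 55.8 ± 3.11 and 137 ± 2.00 CPM. Eif2ak2, the RNA-activated kinase PKR, shared the order of the IFITM genes, with a log2 fold change of -0.32 ± 0.09 for the HD-het line and 0.67 ± 0.09 for the HD-homo line (adjusted p by edgeR of 0.00903 and 9.66e-05).

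Bst2, which tethers budding virions, did not pass the test in any comparison (adjusted p by edgeR of 0.447, 0.272 and 0.0591). Its HD-homo libraries spread widely, at 30.3, 11.6 and 56.0 CPM beside 22.3 ± 0.152 in control. This is the order of libraries seen for the MX genes. Among the 34 tested genes of this list, HD-homo replicate 3 was the highest of its line for 22 and replicate 2 the lowest for 20. Over all 12678 genes tested those shares were 29.7% and 37.3%.

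**Figure D4:**
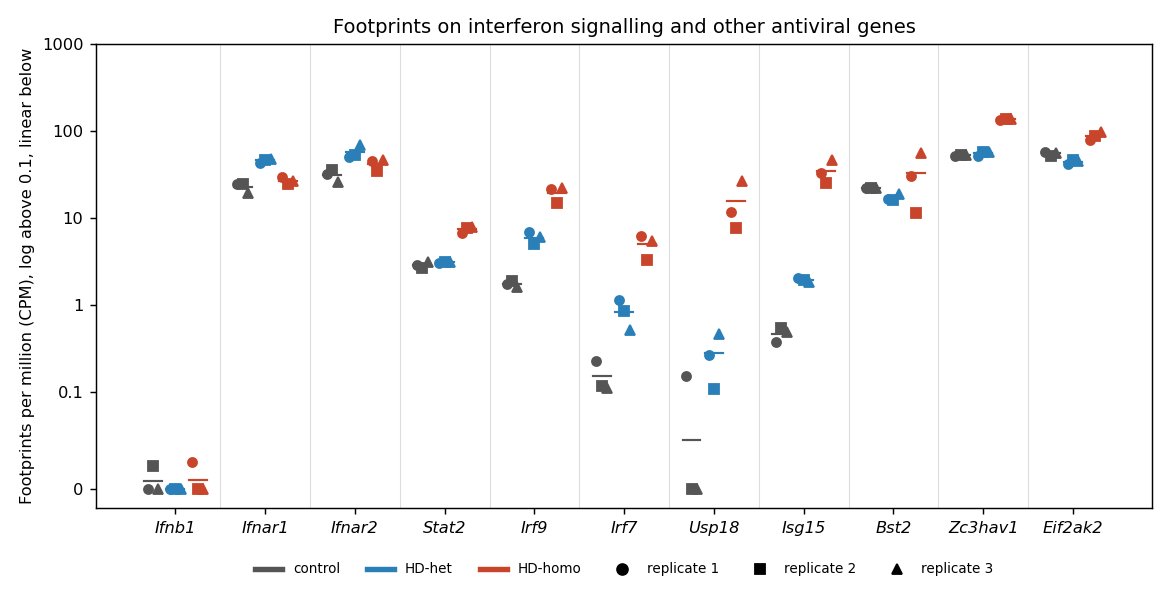
Footprints on interferon signalling and antiviral genes in each library, in CPM on an axis that is logarithmic above 0.1 and linear below, with points for libraries and short lines for means of a line. Ifnb1 lies at or next to 0 throughout, Ifnar1 and Ifnar2 are highest in HD-het cells, and Irf9, Irf7 and Isg15 increase from control over HD-het to HD-homo cells.

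Genes beside the clusters did not share one direction. The 3 nearest protein-coding genes with a row on each side of each cluster make 24 genes, of which 13 were tested. In HD-homo against control cells 6 were higher and 3 lower, beside 23.3% and 22.3% of all genes tested. In HD-het against control 7 were higher and 2 lower, beside 31.0% and 29.1%. Upstream of the IFIT cluster, Lipa, Ch25h and Fas were higher in both mutant lines, and the log2 fold change of Ch25h, an antiviral hydroxylase of cholesterol, was 3.62 for the HD-het line and 3.02 for the HD-homo line. Downstream, Kif20b, a kinesin of cytokinesis, was lower in both, by -0.82 and -0.49.

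Around Rsad2 and Cmpk2, Id2, an inhibitor of basic helix-loop-helix factors, was higher in both mutant lines (log2 fold change 0.46 for HD-het and 1.17 for HD-homo against control) while Sox11, a transcription factor of neural precursors, was lower in HD-homo cells (-4.35). Beside the IFITM genes, Pkp3, a desmosomal protein, went with them in direction, with means of 0.360, 0.0345 and 1.33 CPM in the 3 lines, whereas Pgghg was higher in HD-het cells (log2 fold change 0.78). Next to the MX genes, Prdm15 passed no test, and Fam3b between them had no count.

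Genes whose levels followed those of a member most closely over the 9 libraries were ranked among 12161 genes by Pearson's r of log2 CPM with a prior count of 1. Such correlations are given as a description, since the 3 lines set most of their value. For Ifit1 these were Xlr (0.998), Cxcl10 (0.997) and Lgals3 (0.997), for Rsad2 Gpx7, Tcfl5 and Iqsec1 (each 0.993), and for Ifitm3 Las1l (0.994), Psmg1 (0.993) and Cops7a (0.992). Gpx7 and Tcfl5 had no count in control and HD-het libraries and means of 2.30 and 2.21 CPM in HD-homo libraries. Las1l averaged 101 ± 2.04, 75.7 ± 4.92 and 157 ± 24.1 CPM in control, HD-het and HD-homo libraries, a narrower span than that of Ifitm3.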

How the data were processed

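The authors deposited raw counts of ribosome footprints per gene symbol, 1 column for each of the 9 libraries, without normalization or pooling. The submitters' processing notes name cutadapt, Bowtie 1.0.1 and the build mm10, and the labels give gel selection of 26 to 32 nt fragments from 80S monosomes and depletion of ribosomal RNA. The counting program, its annotation, its use of strand and its handling of multiply matching fragments are not given in the sources used here.

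The test was edgeR's quasi-likelihood one (version 4.0.16, with limma 3.58.1 in R 4.3.3), fitted to all 9 libraries with TMM factors and filterByExpr by line, and adjusted by Benjamini-Hochberg over 12678 genes at 0.05. The SE is the log2 fold change over the root of F. The step was tested on simulated data. Libraries of a line are rounds of culture of the same line, so p-values measure the spread between rounds. A floor of 3 counts per library was used for bounds, and 95% exact binomial intervals for ratios of pooled counts. Intervals and floors cover counting error alone, as PCR copies cannot be told from separate molecules without identifiers.

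Coding lengths, loci, windows and promoter sequences came from RefSeq for GRCm38.p6, the same build as mm10, and 28-base words were looked up in the GENCODE M21 transcripts. Protein lengths had been planned for the levels per kilobase, and coding lengths were used in their place. The members and gene lists were chosen with earlier results of these data known. Named were all members, their relatives, 12 pathway genes (1 is not reported here), the genes beside each cluster and the 3 genes most like Ifit1, Rsad2 and Ifitm3, and, chosen after their values were seen, further genes of these lists. Alternatives were RLE factors, total counts, DESeq2 1.42.0, the unfiltered table, a minimum of 10 counts per library, the 6 compared libraries, a replicate block, removal of rows with older symbols, each library left out (for the MX genes without a filter, and for genes that passed the filter only through the HD-homo libraries, added after seeing the data) and motif matches before the start.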

Additional observations from a re-analysis of the deposited data

Results flagged for a closer look

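Ifitm1 and Ifitm3 moved in opposite directions in the mutant lines, each falling below control in HD-het and rising above it in HD-homo cells, and the difference between the mutant lines passed the test of edgeR. This difference, HD-homo against HD-het, was 1.68 on the log2 scale for Ifitm1 and 2.88 for Ifitm3, and its direction held in 3 of 3 libraries against 3. The lines differ in origin as well as in genotype, and these cannot be told apart.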

How the results depend on the processing

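The number of members that rose in HD-het against control cells, 1 with the settings used, was 2 with RLE factors, with DESeq2 and with the replicate block, where Ifit1 passed (adjusted p 0.0493, 0.0457 and 0.0229), 0 with at least 10 counts in every library, and 1 to 2 when 1 library was left out (2 without HD-homo replicate 1 or 3). The filter of at least 10 counts in every library removes genes near 0 in a line: the members higher in HD-homo cells became 2 against control and 3 against HD-het, and the pathway and family genes higher became 24 and 20, in place of 44 and 40. Leaving out 1 library gave 0 to 1 members lower in HD-homo cells, against control and against HD-het, with Ifit2 lower without HD-homo replicate 2. For pathway and family genes that fell in HD-homo against control cells, it gave 4 to 7, with 4 without control replicate 3. The log2 difference of Ifit2, HD-homo against HD-het, reversed to 0.000529 without HD-het replicate 3, 0.064 without HD-homo replicate 1 and 0.034 without HD-homo replicate 3, none of which passed, and was -0.44 without HD-homo replicate 2. Ifitm2 passed in HD-homo against control cells with total counts (0.30, adjusted p 0.0496). Of the log2 differences of the 8 tested members, 173 values under other settings and 208 with a library left out kept their direction and their side of the threshold. With each HD-homo library left out, chosen after seeing the data, Mx1 and Mx2 in the unfiltered table kept theirs too. The causes were not tested, apart from the filter's own construction. Replicate numbers did not pair the samples, with correlations of deviations between -0.306 and 0.175 for libraries of the same number, and the block changed no other count by over 1.5 times. With matches taken before the start alone, 4 members held the motif in place of 5. Genes under the floor in control and HD-het cells are limited by depth, and no lower level there can be told from 0.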
